A study of Mus musculus with 6 samples.

Results

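Retnla, Ccl17, Ccl22, Ccl24, Klf4 and Socs2 are 6 mouse genes used as markers or effectors of alternatively activated macrophages, the state that interleukin-4 and interleukin-13 induce. They were found by gene symbol in the platform's probe table. Each was represented by 1 probe, so 6 probes stand for 6 genes out of 8841 named genes on the array. The samples were thioglycollate-elicited macrophages, cells that an irritant had drawn to the injection site. The mice were female C57BL/6 animals, 6 weeks old. There were 6 groups with 1 array each. Cells were left alone (No treatment) or given TSA alone or LPS alone. Combined treatments were TSA + LPS, GW3965 + LPS and the triple TSA + GW3965 + LPS. TSA is trichostatin A, an inhibitor of the histone deacetylases. LPS is bacterial lipopolysaccharide, which signals through Toll-like receptors, and GW3965 activates liver X receptors. No group had GW3965 without LPS. Doses, times, the number of animals and any pooling were not given in the labels. No group received interleukin-4 or interleukin-13.

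In alternative activation, interleukin-4 and interleukin-13 bind receptors that contain the interleukin-4 receptor alpha chain and activate the transcription factor STAT6. STAT6 drives a set of genes for tissue repair, parasite defence and attraction of type 2 immune cells. Retnla encodes the secreted protein RELM-alpha (also FIZZ1), and Klf4 encodes a Kruppel-like transcription factor that works with STAT6 in macrophages. Ccl17 and Ccl22 encode chemokines that attract T helper 2 and regulatory T cells through the receptor CCR4. Ccl24 encodes eotaxin-2, which attracts eosinophils through CCR3. Socs2 encodes a suppressor of cytokine signalling that is induced by STAT5 and limits growth hormone and cytokine receptors.

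The deposited values were linear intensities with an array median of 0.981 to 0.987. The method of scaling and background subtraction was not stated in the sources used here. A value at or below the 25th percentile of its own array (0.198 to 0.245) was set to that percentile, called the floor, before log2 was taken. Levels are comparable between arrays for 1 probe, not between genes. An additive model with terms for LPS, TSA and GW3965 was fitted with limma to the 5080 genes that reached the array median on at least 1 array, and all 6 genes were among them. A gene is said to have risen or fallen with a treatment where its Benjamini-Hochberg adjusted p (two-sided) over those 5080 genes was under 0.05. A difference between 2 arrays has no test, and a fold against a floored value is a lower bound, written "at least". No label ties an array to its own culture or animal. With 1 array per group there are no replicates, so p-values and standard errors rest on the misfit to the fitted model. That misfit, which limma moderates over all fitted genes, holds departures from additivity as well as scatter, and the scatter may be technical. These are bulk samples, so fewer cells of a type and less RNA per cell cannot be told apart.

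Promoter sequences are given for 2 pairs of genes that shared a direction, Retnla and Klf4 with TSA and Ccl17 and Ccl22 with LPS. Whether promoter sequence had a part in these directions was not tested. Of the 6 genes 4 matched a RefSeq promoter table (build GRCm38.p6), and Ccl24 and Socs2 did not. The 250 bases before the annotated start are shown 5′ to 3′ on the gene's own strand. Capitals mark matches, on either strand, to any of 7 motifs. These were a STAT motif (TTCNNNGAA), a STAT6 motif (TTC and GAA with 4 free bases between), an NF-kB motif (GGGA and TTCC with 2 free bases between), an AP-1 motif (TGANTCA), an interferon response motif (GAAA and GAAA with 2 free bases between), a GC box (GGGCGG) and a TATA box (TATAAA). Retnla lies at chr16:48842359-48842608 (plus strand), Klf4 at chr4:55532476-55532725 (minus strand), Ccl17 at chr8:94810203-94810452 (plus strand) and Ccl22 at chr8:94745434-94745683 (plus strand).
Retnla: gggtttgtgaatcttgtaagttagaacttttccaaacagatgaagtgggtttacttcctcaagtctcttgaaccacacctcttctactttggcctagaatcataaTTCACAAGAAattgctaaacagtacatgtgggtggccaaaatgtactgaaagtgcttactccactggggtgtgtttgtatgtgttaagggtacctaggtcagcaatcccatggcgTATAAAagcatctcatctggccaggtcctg
Klf4: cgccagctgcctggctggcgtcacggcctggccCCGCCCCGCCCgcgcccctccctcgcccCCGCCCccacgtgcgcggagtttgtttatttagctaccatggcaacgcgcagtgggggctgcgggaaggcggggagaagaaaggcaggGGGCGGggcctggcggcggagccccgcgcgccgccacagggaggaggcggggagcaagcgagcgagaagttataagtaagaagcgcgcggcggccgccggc
Ccl17: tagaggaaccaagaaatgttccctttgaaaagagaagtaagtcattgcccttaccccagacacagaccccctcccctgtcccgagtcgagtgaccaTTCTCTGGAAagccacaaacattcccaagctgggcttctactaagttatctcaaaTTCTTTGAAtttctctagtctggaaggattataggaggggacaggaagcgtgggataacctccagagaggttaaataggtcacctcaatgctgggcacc
Ccl22: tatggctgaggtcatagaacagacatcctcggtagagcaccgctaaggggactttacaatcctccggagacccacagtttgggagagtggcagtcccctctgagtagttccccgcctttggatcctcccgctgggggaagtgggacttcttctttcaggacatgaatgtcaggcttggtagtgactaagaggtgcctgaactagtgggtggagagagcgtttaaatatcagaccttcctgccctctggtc

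The Retnla window held 1 STAT6 match, TTCACAAGAA, starting 145 bases before the start, and 1 TATA box starting 30 bases before it. The Ccl17 window held 1 STAT6 match, TTCTCTGGAA, starting 154 bases before the start, and 1 STAT match, TTCTTTGAA, starting 99 bases before it. The Klf4 window held 4 GC boxes, of which a pair shared 1 base, and none of the other motifs. None of the 7 motifs was found in the Ccl22 window, which says only that these letters are not in these 250 bases. Over all 32851 windows of the same length in the table, 5.85% held the STAT6 motif, 7.02% the STAT motif, 12.4% the TATA box and 32.7% the GC box. The NF-kB motif was in 1.21%, the AP-1 motif in 6.75% and the interferon response motif in 2.98%. A match is a description of the letters and not evidence of binding. Ccl22 and Ccl17 lie on chromosome 8 with only Cx3cl1 between them among protein-coding genes of that assembly.

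The cells carried macrophage markers on all arrays. Of 12 markers 9 were on the array, each above the floor on at least 1 array, and their summed intensity was 1999 to 2355 without TSA and 1583 to 1899 with it. Adgre1 and Cd14 rose with LPS by 1.60 and 3.30 and Fcgr3 fell by 0.69, while Cd14 fell with TSA by 0.83. Adgre1 read 0.730 with No treatment, under the array median. The neutrophil list (10 of 14 on the array, Mpo under the floor throughout) summed to 25.2 to 39.0 without LPS and 53.1 to 84.0 with it, but its genes moved both ways. S100a8 rose with LPS by 1.20 and with TSA by 0.60, Camp rose with LPS by 2.91 and Prtn3 with TSA by 3.12, while Ltf fell with LPS by 1.34 and Csf3r with TSA by 1.08. Camp reached the array median only on arrays with LPS and Prtn3 only on arrays with TSA. Ltf did so only with TSA alone and Csf3r only with LPS alone. Except for S100a8, these genes entered the fit through the group where they were high, and their calls are a description. The eosinophil list (5 of 10) summed to 25.1 to 37.2 without TSA and 27.8 to 39.1 with it, and no fitted gene of it was called. Its granule genes Prg2 and Epx read 0.109 to 0.312 and 0.432 to 0.768, the surface lectin Siglecf 2.91 to 4.66 and the lipoxygenase Alox15 20.2 to 34.4. The T and NK cell list (8 of 12, with Cd3e and Cd8a under the floor throughout) summed to 3.89 to 5.71 over the 6 arrays, and was not separated by either treatment. The sums of 3 further lists were higher on all arrays with LPS. They were 7.67 to 7.78 without and 8.21 to 9.98 with LPS for B cells (5 of 7), 22.7 to 24.1 and 25.3 to 30.3 for mast cells (6 of 9), and 9.48 to 14.4 and 15.0 to 16.3 for fibroblasts and mesothelium (7 of 9, with Msln and Lum under the floor throughout). Limma called none of the fitted B cell or mast cell markers for LPS or TSA, and in the fibroblast and mesothelial list only the keratin Krt19, which fell with LPS by 1.23. Krt19 reached the array median only with TSA alone, so its fall is a description too. Bright probes made up much of these sums. With No treatment Lyz2 and Ctsd were 1027 and 915 of 2355, and Alox15 was 31.3 of 37.2. S100a8 was 78.8 of 84.0 with TSA + LPS, and Dcn was 10.4 of 16.3 with LPS. None of these markers was at 0 on any array, and the part of other cells in the LPS and TSA results was not tested.

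**Figure D1:**
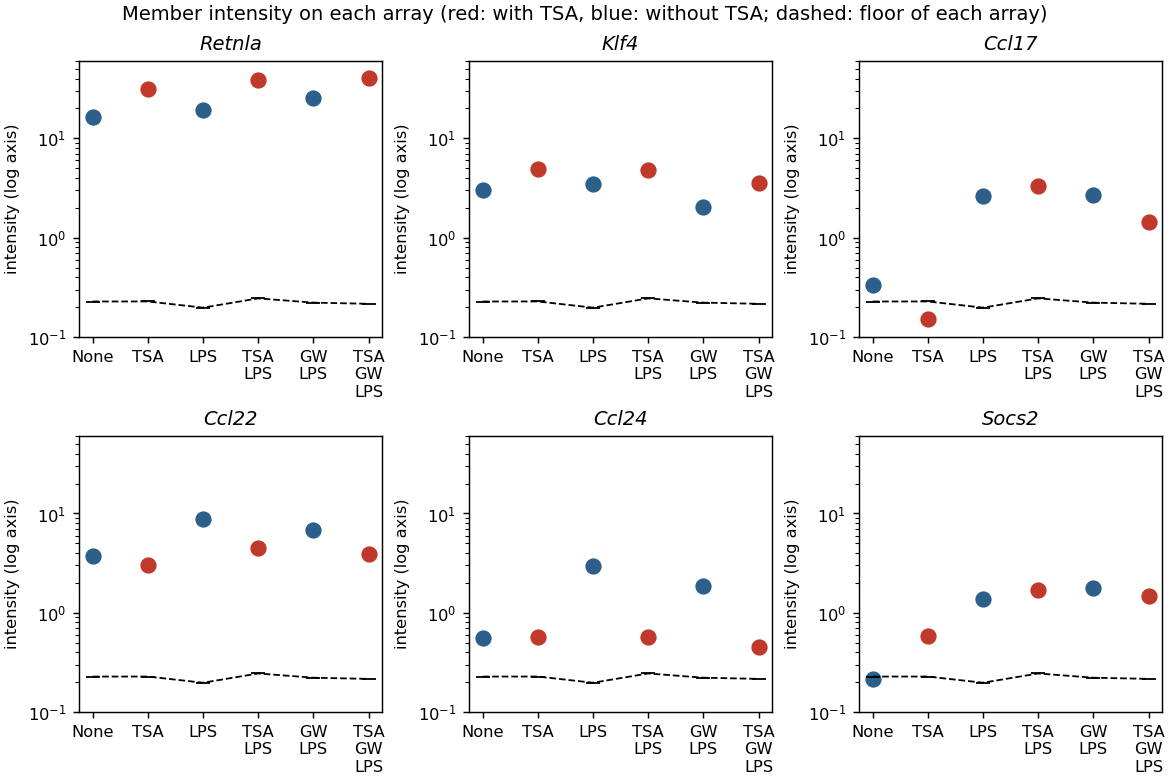
Intensity of the 6 genes (log axis, linear intensity units) on each of the 6 arrays; red points are arrays with TSA, blue points arrays without it, GW stands for GW3965, and the dashed line is the floor of each array. All 3 red points lie above all 3 blue points for Retnla and Klf4, and only the arrays with LPS and without TSA stand high for Ccl24.

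Retnla and Klf4 were higher with TSA on every background. Retnla read 16.3 with No treatment and 31.3 with TSA. It read 19.5 with LPS and 39.1 with TSA + LPS, and 25.5 with GW3965 + LPS and 40.9 with TSA + GW3965 + LPS. The 3 arrays with TSA, at 31.3 to 40.9, did not overlap the 3 without it, at 16.3 to 25.5. The folds with TSA were 1.92 at rest, 2.01 under LPS and 1.61 under GW3965 + LPS. Under LPS, the array with TSA read 2-fold or more above the one without for 7.57% of 4794 measured genes, and Retnla was the only 1 of the 6 genes to be so. The mean log2 difference was 0.88 ± 0.17 (SD, n = 3 pairs), and Retnla rose with TSA (SE 0.20, limma adjusted p = 0.00647, higher in 3 of 3 pairs). Over all fitted genes, 15.2% had all TSA arrays above all arrays without TSA and 11.0% rose with TSA. Sorted by level, the 6 arrays formed a ladder in which no neighbouring pair differed by more than 0.70 on the log2 scale. That limit is 2 standard deviations of a difference between 2 arrays, from this gene's moderated residual SD of 0.25. That SD measures misfit to the additive model, not scatter of replicates.

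Klf4 showed the same separation at a smaller size. It read 3.01 with No treatment and 4.95 with TSA, 3.48 with LPS and 4.79 with TSA + LPS, and 2.03 with GW3965 + LPS and 3.57 with TSA + GW3965 + LPS. The TSA arrays lay at 3.57 to 4.95 and the others at 2.03 to 3.48, so the groups did not overlap, although LPS and TSA + GW3965 + LPS stood only 0.037 apart on the log2 scale. Klf4 rose with TSA by a mean log2 difference of 0.67 ± 0.18 (SD, n = 3 pairs; SE 0.21, limma adjusted p = 0.0371, higher in 3 of 3 pairs). This call was lost in the fit without any 1 of the No treatment, TSA, GW3965 + LPS and TSA + GW3965 + LPS arrays, with differences of 0.64, 0.64, 0.59 and 0.59 and adjusted p-values of 0.171, 0.184, 0.22 and 0.218. It was also lost with the floor raised to the array median, where the difference was again 0.67 (adjusted p = 0.105, 0.035 to 0.105 over 8 settings). Retnla rose in all of these fits.

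LPS moved neither gene past the threshold. The LPS difference of Retnla was 0.29 (SE 0.25, limma adjusted p = 0.495), and its 95% interval reached from -0.23 to 0.81. That of Klf4 was 0.08 (SE 0.26, adjusted p = 0.891), with an interval from -0.47 to 0.63. Klf4 was lower with GW3965 in both pairs, 1.72-fold without TSA and 1.34-fold with it. The mean difference of -0.60 (SE 0.26) had an unadjusted limma p of 0.033 and an adjusted p of 0.9999, so it was not called.

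Ccl17 and Ccl22 were both higher on every array with LPS than on either array without it. Ccl17 read 0.331 with No treatment and 0.153, under the floor, with TSA. With LPS it read 2.62, with TSA + LPS 3.35, with GW3965 + LPS 2.71 and with TSA + GW3965 + LPS 1.44. These 4 LPS arrays did not overlap the 2 arrays without LPS, and the step between No treatment and TSA + GW3965 + LPS, 2.12 on the log2 scale, was the only one between neighbours to exceed this gene's limit of 0.94. Ccl17 was 7.93-fold higher with LPS without TSA and at least 14.7-fold higher with TSA. In the fit Ccl17 rose with LPS by 3.43 on the log2 scale (SE 0.33, limma adjusted p = 1.73e-07, higher in 2 of 2 pairs). With the floor at the median the difference was 1.59 and was still called (adjusted p = 0.0148, 1.21e-21 to 0.0148 over 8 settings). Of the 6 genes 3 rose with LPS and 0 fell, against 12.3% and 7.11% of all fitted genes. Ccl17 and Socs2 reached the array median only on the 4 arrays with LPS, so they entered the fit through the group where they were high. Their LPS differences in the fits and the count of 3 are therefore a description. In the LPS and No treatment pair 4 of the 6 were at least 2-fold higher, against 14.0% of 4790 measured genes, and in the TSA + LPS and TSA pair 2 were, against 9.20% of 4785. These percentages depend on scaling. After quantile normalization 543 genes rose and 557 fell with LPS, in place of 626 and 361, and the median LPS difference of all fitted genes moved from 0.03 to -0.11. The 6 members all stayed above that median, and 3 rose there too.

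Ccl22 had a measurable level on every array and a smaller LPS step. It read 3.77 with No treatment, 3.04 with TSA, 8.84 with LPS, 4.50 with TSA + LPS, 6.83 with GW3965 + LPS and 3.91 with TSA + GW3965 + LPS. The 4 LPS arrays lay above the 2 others, but TSA + GW3965 + LPS exceeded No treatment by only 0.05 on the log2 scale, well inside the limit of 0.76. Ccl22 was 2.34-fold higher with LPS without TSA and 1.48-fold higher with TSA. It rose with LPS by 0.90 (SE 0.27, limma adjusted p = 0.0215, higher in 2 of 2 pairs). The LPS call was lost without the No treatment array (0.61, adjusted p = 0.408), without the LPS array (0.69, adjusted p = 0.0937) and with the floor at the median (again 0.90, adjusted p = 0.0853, 0.0128 to 0.0853 over 8 settings). The share of all fitted genes whose LPS arrays all lay above the others was 19.4%.

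With TSA, Ccl22 fell and Ccl17 was not called. Ccl22 was 1.24-fold lower with TSA at rest, 1.96-fold lower under LPS and 1.75-fold lower under GW3965 + LPS. It fell with TSA by a mean log2 difference of -0.70 ± 0.34 (SD, n = 3 pairs; SE 0.22, limma adjusted p = 0.0328, lower in 3 of 3 pairs). Of all fitted genes 7.54% fell with TSA. The call was lost without any 1 of the 4 LPS arrays. The difference was then -0.56 without LPS or TSA + LPS (adjusted p = 0.0775 and 0.0848) and -0.64 without GW3965 + LPS or TSA + GW3965 + LPS (adjusted p = 0.174 and 0.179). With the floor at the median the difference was again -0.70 and its adjusted p was 0.105 (0.0222 to 0.105 over 8 settings). Ccl17 did not move 1 way with TSA. It was at least 1.45-fold lower at rest, 1.28-fold higher under LPS and 1.88-fold lower under GW3965 + LPS, and the mean of -0.37 ± 0.65 (SD, n = 3 pairs) was not called (SE 0.27, limma adjusted p = 0.385).

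With GW3965, Ccl17 read 2.71 against 2.62 without it when TSA was absent, and 1.44 against 3.35 when TSA was present. The second difference was 2.33-fold, in a pair where 0.577% of 4682 measured genes were at least 2-fold lower. The term for a different GW3965 effect with TSA was -0.82 (SE 0.59, limma adjusted p = 0.999) for Ccl17, with a 95% interval from -1.97 to 0.33, so the difference between the GW3965 effects was not called. This term was fitted with the LPS effect taken as the same with and without TSA. It is therefore not the plain difference between the Ccl17 pairs. Limma called 0 of the 6 genes for this term, against 0.0591% of all fitted genes. Of the 6, 0 had an unadjusted p under 0.05. Ccl22 was lower with GW3965 in both pairs, 1.30-fold and 1.15-fold, which was not called either (limma adjusted p = 0.9999).

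Dendritic cells also make Ccl17 and Ccl22. Of 12 markers 5 were on the array, and their summed intensity was 20.0 to 27.0 without TSA and 12.5 to 13.2 with it. Most of that sum was Itgax, at 24.0 of 25.7 with No treatment. The integrin Itgax, which macrophages carry too, fell with TSA by 0.99 and the actin-bundling Fscn1 by 0.83 (limma adjusted p = 0.004 and 0.0305). The cytokine receptor Flt3 was not called (0.07, adjusted p = 0.899), and it read 0.965 with LPS and 1.44 with TSA + LPS, while the homing receptor Ccr7 and the peptidase Dpp4 were under the floor on all arrays. The part of these cells in the Ccl22 result was not tested.

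Ccl24 was high on only 2 arrays, those with LPS and without TSA. It read 2.95 with LPS and 1.86 with GW3965 + LPS. On the other 4 arrays it lay between 0.457 and 0.575, above the floor but under the array median. TSA + LPS, at 0.575, was nearly level with TSA alone, at 0.569, and with No treatment, at 0.553. LPS against No treatment was a 5.33-fold difference, while TSA + LPS against TSA was 1.01-fold. The step from TSA + LPS to GW3965 + LPS, 1.69 on the log2 scale, was the only one between neighbours past this gene's limit of 1.23.

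With TSA, Ccl24 was 5.14-fold lower under LPS and 4.06-fold lower under GW3965 + LPS. At rest it was 1.03-fold higher, with both arrays under the median. In these LPS pairs 9.55% of 4794 and 1.13% of 4697 measured genes were at least 2-fold lower, and Ccl24 was the only 1 of the 6 genes to be so. In the fit Ccl24 fell with TSA by a mean log2 difference of -1.45 ± 1.30 (SD, n = 3 pairs; SE 0.36, limma adjusted p = 0.0093, lower in 2 of 3 pairs). Leaving out either array without LPS moved the TSA difference to -2.19, and leaving out either LPS or TSA + LPS moved it to -0.99, with the call kept. With the floor at the median the difference was -0.83 and was not called (adjusted p = 0.0993, 1.55e-05 to 0.0993 over 8 settings). Ccl24 reached the array median only on the 2 arrays with LPS and without TSA. It thus entered the fit through the group where it was high, and its differences in the fits are a description.

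Its LPS difference in the additive fit averaged the 5.33-fold and the 1.01-fold differences and missed the threshold, at 1.21 (SE 0.44, limma adjusted p = 0.0587). It passed in 4 of the 6 fits that left out an array, for example at 2.33 without the TSA array (adjusted p = 2.33e-05) and 1.90 without TSA + LPS (adjusted p = 4.11e-05), and at 1.21 without either GW3965 array (adjusted p = 0.00934 and 0.0047). It was 0.098 without the No treatment array and 0.53 without the LPS array (adjusted p = 0.957 and 0.453). It also passed without the level filter (adjusted p = 0.00502, 0.00502 to 0.18 over 8 settings). A term for a different LPS effect with TSA was then added to the model. In that fit the GW3965 effect was taken as the same with and without TSA. For Ccl24 the added term was -2.23 (SE 0.65, 95% interval -3.51 to -0.95), the largest in size among the 6 genes. The term had an unadjusted limma p of 0.000625 and an adjusted p of 0.118. It passed in a fit without the intensity trend (adjusted p = 0.0346, 0.0346 to 0.888 over 8 settings). Limma called 0 of the 6 genes for this term, against 0.236% of all fitted genes, and 2 of them had an unadjusted p under 0.05.

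**Figure D2:**
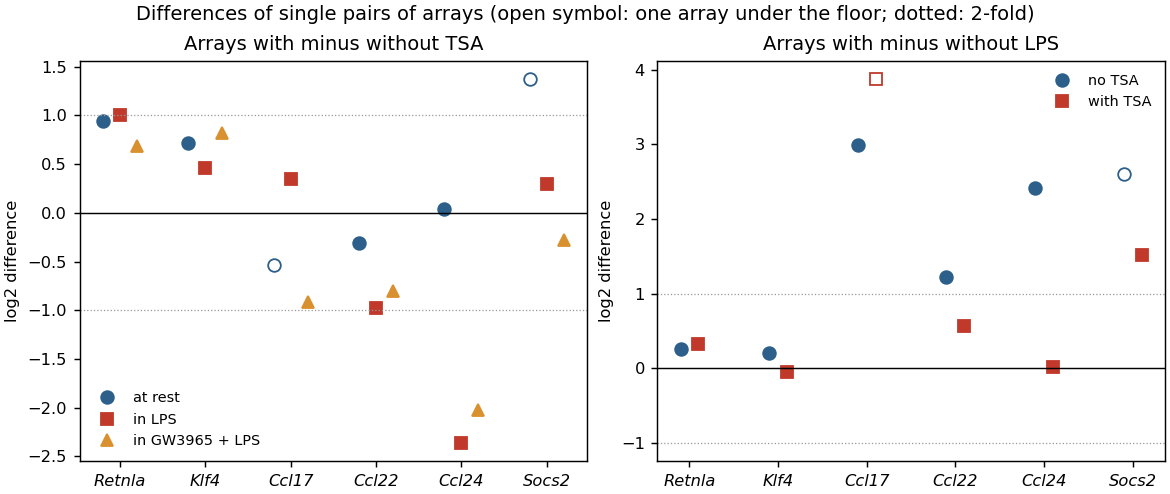
Log2 differences of single pairs of arrays for each gene, with minus without TSA on 3 backgrounds (left) and with minus without LPS at 2 levels of TSA (right); open symbols are bounds because 1 array was under the floor, and dotted lines mark 2-fold. The TSA differences of Retnla and Klf4 are all above 0 and those of Ccl22 all below it, while Ccl24 sits near 0 at rest and at -2.36 and -2.02 under LPS.

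Socs2 was low without LPS and level across the arrays with it. It read 0.218, under the floor, with No treatment and 0.590 with TSA. The 4 arrays with LPS lay close together, at 1.38 with LPS, 1.69 with TSA + LPS, 1.77 with GW3965 + LPS and 1.46 with TSA + GW3965 + LPS. They did not overlap the arrays without LPS, and no neighbouring pair among them differed by more than 0.21 on the log2 scale, against a limit of 1.03. The steps past that limit were No treatment to TSA, 1.37 with No treatment at the floor, and TSA to LPS, 1.23. Socs2 was at least 6.06-fold higher with LPS without TSA and 2.87-fold higher with TSA. It rose with LPS by 2.06 on the log2 scale (SE 0.37, limma adjusted p = 0.000299, higher in 2 of 2 pairs). Socs2 reached the array median only on the 4 arrays with LPS. It thus entered the fit through the group where it was high, and its LPS differences in the fits are a description. With the floor at the median the difference was 0.64 and was not called (adjusted p = 0.0696, 7.35e-08 to 0.0696 over 8 settings). All 6 fits that left out an array kept the call, with differences from 1.38 (without No treatment) to 2.74 (without TSA).

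TSA alone gave Socs2 a reading at least 2.59-fold above No treatment, with both arrays under the median. Under LPS the TSA difference was 1.23-fold higher, and under GW3965 + LPS 1.21-fold lower. The mean of 0.46 ± 0.84 (SD, n = 3 pairs) was not called (SE 0.30, limma adjusted p = 0.308). The term for a different LPS effect with TSA was -1.36 (SE 0.64), with an unadjusted limma p of 0.0344 and an adjusted p of 0.922. That term was 0.0056 with the floor at the median, where both arrays without LPS are floored.

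**Figure D3:**
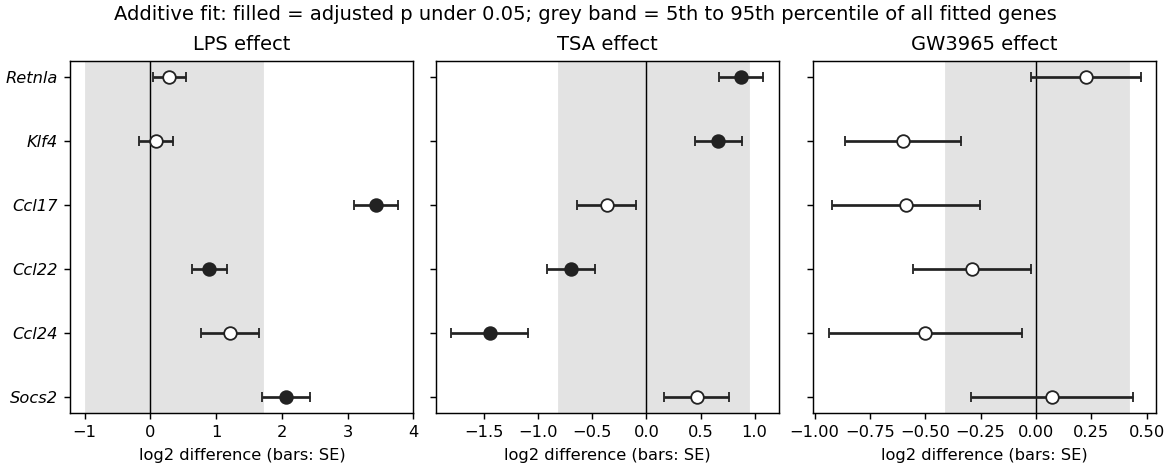
Log2 differences of the additive fit for LPS, TSA and GW3965 (bars are standard errors; filled points have an adjusted p under 0.05; each panel has its own axis range, and the grey band spans the 5th to the 95th percentile of all 5080 fitted genes). Ccl17 and Socs2 lie beyond the band for LPS, at 3.43 and 2.06, and Ccl24 lies beyond it for TSA, at -1.45. Klf4 (-0.60), Ccl17 (-0.59) and Ccl24 (-0.50) lie below the band for GW3965, none of them called.

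Across the 6 genes, LPS differences were all above 0 with a median of 1.06 on the log2 scale, against 0.03 over all fitted genes. Ccl17, Ccl24 and Socs2 entered the fit only through arrays with LPS, where they were high, so this median is a description. With TSA 2 genes rose, 2 fell and 2 were not called, beside 11.0% and 7.54% of all fitted genes that rose and fell. Ccl24, 1 of the 2 that fell, entered the fit only through arrays without TSA, where it was high. The median TSA difference of 0.05 stood beside 0.01 over all fitted genes. With GW3965 limma called 0 of the 6, against 0.0787% of all fitted genes, and 1 had an unadjusted p under 0.05. The median GW3965 difference of the 6 was -0.39, against 0.01 over all fitted genes. The LPS and TSA pairs share arrays, so these rows of differences are not independent of each other.

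Of 44 listed genes of the alternative activation programme 35 were on the array and 27 were fitted, and 21 of these were other than the 6 genes described. Among those 21, limma found that 5 rose and 2 fell with LPS, with a median of -0.25, and that 2 rose and 2 fell with TSA, with a median of -0.03. Over all fitted genes 12.3% rose and 7.11% fell with LPS, and 11.0% rose and 7.54% fell with TSA, so the TSA counts of these 21 were near the background. Il4i1, an amino acid oxidase, rose with LPS by 4.0, the interleukin-1 receptor antagonist Il1rn by 3.12 and the collagenase Mmp13 by 3.04. Il4i1 and Mmp13 reached the array median only on arrays with LPS, so their LPS rises are a description. Pparg, a nuclear receptor that supports alternative activation, fell with LPS by 2.91 and the inhibitory receptor Cd200r1 by 1.29. With TSA, Mmp13 rose by 1.55 and the arginase Arg2 by 1.06, while the growth factor Tgfb1 fell by 0.77 and the beta-glucan receptor Clec7a by 0.67. Arg1, the classic arginase of this state, read 1.34 with No treatment and 1.33 with TSA, and 0.477 to 0.893 on the arrays with LPS. Its LPS difference of -0.89 was not called (SE 0.36, limma adjusted p = 0.0894). The mannose receptor Mrc1 and the chitinase-like Chil3 were not called for any treatment. Chil3 read 20.2 to 31.7, and Mrc1 4.82 to 8.30.

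**Figure D4:**
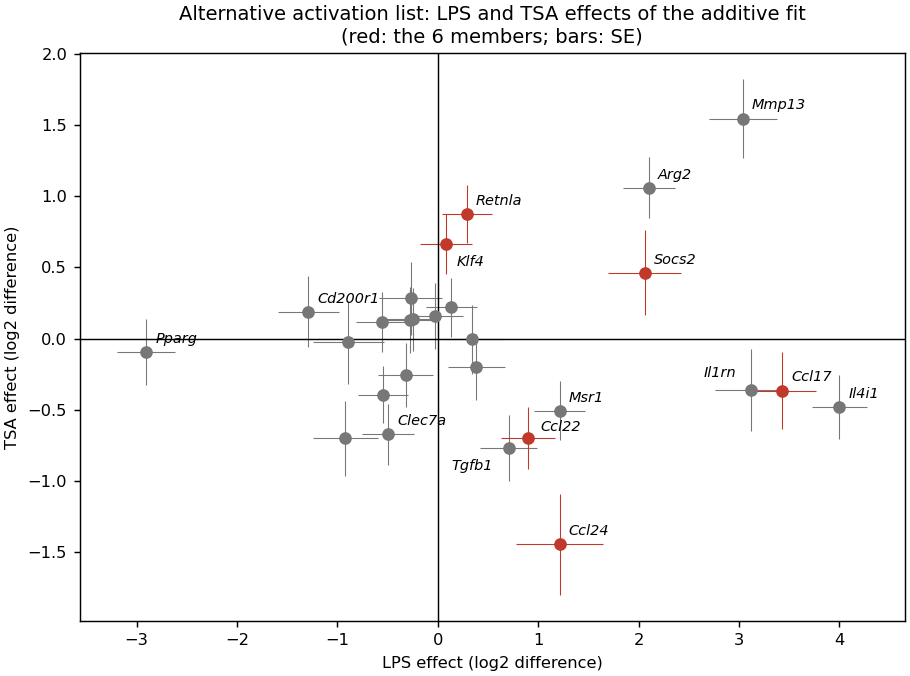
LPS effect (horizontal) and TSA effect (vertical) of the additive fit, both log2 differences with standard errors as bars, for the 27 fitted genes of the alternative activation list; red points are the 6 genes described, and labels mark these and genes called for LPS or TSA. Retnla and Klf4 sit near 0 for LPS and above 0 for TSA, and Ccl24 is the lowest point for TSA at -1.45.

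The interleukin-4 and interleukin-13 signalling list held 29 genes, of which 13 were fitted. Limma found that 5 rose and 0 fell with LPS, and that 0 rose and 4 fell with TSA, with medians of 0.69 and -0.11. Over all fitted genes 12.3% rose and 7.11% fell with LPS, and 11.0% rose and 7.54% fell with TSA. The list was not tested as a set. The transcription factor Stat6 fell with TSA by 0.85 (SE 0.22, limma adjusted p = 0.0134), from 8.47 to 4.11 at rest, from 5.71 to 2.59 under LPS and from 3.97 to 3.06 under GW3965 + LPS. The phosphatases Ptpn1 and Ptpn6, which damp cytokine receptor signals, fell by 1.47 and 1.03, and the feedback inhibitor Socs1 by 0.79. With LPS the kinases Jak2 and Tyk2 rose by 2.94 and 0.96, Socs1 and Socs3 by 3.73 and 3.70, and the transcription factor Cebpb by 2.31. Socs1 and Socs3 reached the array median only on arrays with LPS, so their LPS rises are a description.

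Most measured CC chemokines rose with LPS. Of 21 listed genes 15 were fitted, with a median LPS difference of 2.57 and a median TSA difference of -0.28. Of those, 12 were other than Ccl17, Ccl22 and Ccl24, and their medians were 2.67 for LPS and 0.08 for TSA. Limma found that 9 of the 12 rose with LPS and 0 fell, and that 0 rose and 1 fell with TSA. The shares of all fitted genes were 12.3% and 7.11% for LPS, and 11.0% and 7.54% for TSA. Ccl7, Ccl5, Ccl2 and Ccl3, which attract monocytes and T cells, rose with LPS by 7.14, 6.82, 6.12 and 4.75. Ccl19, a ligand of CCR7, fell with TSA by 0.99 (SE 0.33, limma adjusted p = 0.0409). It reached the array median only with LPS and with GW3965 + LPS, both without TSA. Ccl19 thus entered the fit through the group where it was high, and this fall is a description. Of 22 chemokine receptors 8 were fitted. Ccr1 fell with LPS by 1.02 and rose with TSA by 0.76, and the decoy-like receptor Ccrl2 rose with LPS by 3.50 and fell with TSA by 0.56. Ccr4, the receptor of CCL17 and CCL22, read 2.26 to 3.67 and was not called for any treatment. Ccr3, the receptor of CCL24, read 0.283 to 0.616 and was under the median on every array.

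Socs2 shared its LPS rise with part of its family. Of 8 family members 4 were fitted, and 3 of them (Socs1, Socs2 and Socs3) rose with LPS while Socs6 fell by 1.81. With TSA Socs1 fell and the others were not called. Of 29 genes of growth hormone, GM-CSF and STAT5 signalling 12 were fitted, and 5 rose and 0 fell with LPS. Stat5a and Stat5b rose by 1.35 and 1.36, the growth factor gene Csf2 by 2.29 and Jak2 by 2.94. Stat5b reached the array median only on the LPS array, and Csf2, Socs1, Socs2 and Socs3 only on arrays with LPS. They entered the fit through the group where they were high, so their LPS rises are a description. Whether STAT5 had a part in the Socs2 rise was not tested. With TSA limma called 0 of the 12, with 3 at an unadjusted p under 0.05. Of all fitted genes 12.3% rose and 7.11% fell with LPS, and 11.0% rose and 7.54% fell with TSA. These lists were not tested as sets.

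Of 21 Kruppel-like factors 11 were fitted, with a median TSA difference of -0.10 and a median LPS difference of 0.23. With TSA Klf4 and Klf9, a hormone-responsive factor, rose, Klf9 by 0.98, and Klf6 fell by 0.87. With LPS Klf3 and Klf6 rose by 1.19 and 1.13 and Klf9 fell by 1.03. Klf3 reached the array median only on the LPS array, so its rise is a description. Among all fitted genes 11.0% rose and 7.54% fell with TSA, and 12.3% rose and 7.11% fell with LPS. Retnla was the only fitted gene of the resistin family. Its relatives Retnlb and Retn, on the same array, stayed under the median on all arrays, at 0.305 to 0.467 and -0.00761 to 0.134.

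For each gene the 3 fitted genes with the most similar profile were found by Pearson correlation of floored log2 values over the 6 arrays. With 6 points and 5080 genes high values arise readily, and no p is given. For Retnla they were Ubl5 (0.999), Stx8 (0.998) and Krtcap2 (0.993). For Klf4 they were 5430427O19Rik (0.975), the fibrinogen-like Fgl2 (0.966) and the interferon-inducible Gbp8 (0.962). For Ccl17 they were Tmem128 (0.993), Pde6a (0.990) and Plekha2 (0.987), and for Ccl22 Itpripl1 (0.990), Rasl2-9 (0.989) and Arfrp1 (0.988). For Ccl24 they included the DNA glycosylase Tdg (0.991) and Gpr31b (0.973). Gpr31b read 1.42 with LPS, 0.728 with GW3965 + LPS, under the array median, and 0.341 to 0.422 on the other 4 arrays. It was picked for its likeness to Ccl24, and its 2 highest arrays were the same. For Socs2 they were Memo1 (0.995), Ak6 (0.994) and Bzw1 (0.993).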

How the data were processed

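Gene expression was measured on 6 biotin-labelled single-colour arrays, 1 per group. Per the deposited table, values are linear intensity scaled by the authors so that array medians nearly coincide. The scaling method, background correction, log base and centring before deposit are not given in the sources used here, and a few values (19 to 28 per array) lie at or below 0. Of 10076 probes 8983 carried 1 gene symbol, 1 several and 1092 none. A gene was read from its brightest probe (138 genes had several). Intensities were floored at each array's 25th percentile and log2-transformed. limma 3.58.1 (R 4.3.3) fitted LPS, TSA and GW3965 as additive terms with an intensity trend (2 residual and 16.9 prior degrees of freedom). Each term for an interaction with TSA left 1 residual degree of freedom, and its prior degrees of freedom were infinite. Each was fitted without the other. The fit was tested on simulated data. Members, gene lists and markers were chosen with earlier results of these data known. From each list the called genes were named, or, above 6 calls, the 4 farthest from 0 in each direction. Arg1, Mrc1, Chil3, Ccr3, Ccr4, Retn, Retnlb and the neutrophil and dendritic cell markers were named for their known roles after their values were seen. 1 gene with a profile like that of Ccl24 is not reported here. Alternatives varied scaling, floor, filter, probes, prior and arrays. Promoter motifs were counted in RefSeq windows. Figures used matplotlib 3.10.9. The number of arrays limits the precision.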

Additional observations from a re-analysis of the deposited data

How the results depend on the processing

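Alternatives covered 8 settings of the fit and 6 fits that each left out 1 array. The directions of all calls of the 6 genes held in every one of them. Where the floor was raised to the array median, 1 of the 6 genes was called for LPS (in place of 3) and 1 for TSA (in place of 4), and over all genes 650 for LPS (in place of 987), 341 for TSA (in place of 940), 0 for GW3965 (in place of 4), 0 for TSA by LPS (in place of 12) and 0 for TSA by GW3965 (in place of 3). The lost calls of Klf4 and Ccl22 kept their differences there, while those of Ccl24 (TSA) and Socs2 (LPS) became smaller. Klf4 and Ccl22 were above the median on every array, so this floor left their values as they were. Ccl24 was under it except with LPS and GW3965 + LPS, and Socs2 on the arrays without LPS, and these readings were set to the median. What raised the adjusted p of Klf4 and Ccl22 there was not tested. Without the level filter 20 genes were called for GW3965. Without the intensity trend 1 of the 6 genes, Ccl24, was called for TSA by LPS, and with a robust prior 1 gene of all was called for TSA by GW3965. Of 37 measured differences between single arrays 10 were at least 2-fold, 19 at least 1.5-fold and 6 at least 3-fold. Leaving out 1 array, which also leaves 1 residual degree of freedom, gave 2 to 4 of the 6 genes for LPS, 2 to 3 for TSA and 0 for GW3965, and over all genes 593 to 1174, 655 to 939 and 7 to 55. The LPS difference of Klf4 then ran from -0.0701 (without LPS) to 0.23. The GW3965 difference of Ccl24 ran from -1.185 to 0.19 (without LPS) and that of Socs2 from -0.48 (without GW3965 + LPS) to 0.63, at -0.054 without TSA + LPS. The TSA by LPS term of Ccl17, 0.26, was -0.28 with the floor at the median, and that of Socs2, -1.36, was 0.0056. No call of the 6 genes rests on these terms. Quantile normalization and cyclic loess kept the counts of the 6 genes called for each treatment. No paired analysis was possible because each group has 1 array and no replicate number is shared. The pairs in the report match arrays on the other treatments.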

Other observations

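Genes next to the 6 on their chromosomes were looked up in the RefSeq table after the values of the 6 genes had been seen. Of 11 nearest protein-coding neighbours 6 were on the array and 2 were fitted, both beside Socs2. Mrpl42, a protein of the mitochondrial ribosome, read 12.7 with No treatment, 17.5 with TSA, 5.83 with LPS, 13.2 with TSA + LPS, 10.5 with GW3965 + LPS and 17.2 with TSA + GW3965 + LPS. It fell with LPS by 0.765 on the log2 scale (SE 0.27, limma adjusted p = 0.0491) and rose with TSA by 0.785 (SE 0.22, adjusted p = 0.0174). Cradd, a death domain adaptor, fell with LPS by 0.97 (SE 0.31, adjusted p = 0.0311), while Socs2 between them rose. Cx3cl1, between Ccl22 and Ccl17, read 0.0452 to 0.251 and was under the array median throughout.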
